A study of Arabidopsis thaliana with 9 samples.

Results

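A set of 26 Arabidopsis thaliana genes was examined whose intron share, the intron count divided by the sum of the intron and exon counts, in each of 2 mutants was at least 5 times that in wild type. The counts of the 3 libraries of each genotype were pooled, and a locus entered with at least 30 intron counts in Col-0 and at least 500 exon counts in every genotype. Of 37869 loci in the data, 7539 passed these count minimums and 28 reached the 5-fold threshold in both mutants, which is 0.371%. The beta-tubulin gene TUB5 (AT1G20010) and the polyubiquitin gene UBQ10 (AT4G05320) were left out by definition, which leaves the 26 members. The members were chosen by these measured values, so the share, the intron count and the exon count of the mutants against Col-0 are given here as a description, without a test.

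The libraries came from poly(A) RNA of whole seedlings aged 12 days. The groups were pp4r3a-1 and pp4r3a-2, mutant alleles of PP4R3A (AT3G06670) in the Col-0 background, and the wild type Col-0, each with 3 biological replicates. All seedlings were grown on Murashige and Skoog medium with 16 h of light and 8 h of dark. PP4R3A encodes a regulatory subunit of protein phosphatase 4, a serine/threonine phosphatase, and the exon level of the gene itself was 62.7 ± 3.40 counts per 1000000 exon counts (CPM) in pp4r3a-1, 18.0 ± 0.378 CPM in pp4r3a-2 and 81.6 ± 1.74 CPM in Col-0 (SD, n = 3 each).

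As background, an intron is removed from the primary transcript by the spliceosome, which joins the neighbouring exons and recognises a GT at the start of the intron and an AG at its end in the gene. In polyadenylated RNA most introns are already gone. The reads that still fall in introns can come from several sources. These sources include transcripts that keep an intron, transcripts not yet fully spliced and overlapping RNA. Intron retention is a common form of alternative splicing in plants, and a retained intron often carries a stop codon. A count summed over all introns of a gene does not show which intron holds the reads.

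The introns of the members whose values are followed most closely below are shown here with a sequence window or in full, in the orientation of the gene. They were looked up by locus in the RefSeq annotation of TAIR10.1, in which all 26 members were found. The capitals mark the GT and AG at the ends of each intron, and a window holds 10 exon bases and 40 intron bases. CHLI1 (AT4G18480) is shown because both of its coding introns are short enough to print, from chr4:10203178-10203258 and chr4:10202953-10203061 on the minus strand:
CHLI1 intron 1: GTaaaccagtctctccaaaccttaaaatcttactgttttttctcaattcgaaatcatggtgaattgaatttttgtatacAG
CHLI1 intron 2: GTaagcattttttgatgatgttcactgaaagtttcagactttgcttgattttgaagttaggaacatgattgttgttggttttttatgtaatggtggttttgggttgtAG

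TET8 (AT2G23810) and GID1A (AT3G05120) are shown because each has a single annotated intron, in a single annotated transcript, so that in this annotation its intron counts can only come from that intron. The TET8 intron is 672 bases long, and its ends lie at chr2:10136806-10136855 and chr2:10136164-10136213 on the minus strand. The GID1A intron is 568 bases long, with its ends at chr3:1430711-1430760 and chr3:1431249-1431298 on the plus strand:
TET8 intron 1 start: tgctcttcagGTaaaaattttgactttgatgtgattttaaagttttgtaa
TET8 intron 1 end: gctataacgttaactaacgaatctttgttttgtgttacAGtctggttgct
GID1A intron 1 start: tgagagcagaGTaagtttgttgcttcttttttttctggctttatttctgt
GID1A intron 1 end: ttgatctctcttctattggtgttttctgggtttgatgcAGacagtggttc

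LHCA1 (AT3G54890), AT4G19200 and TIR1 (AT3G62980) are shown because, with TET8, they are the members whose intron-to-exon ratio differed between the alleles in the edgeR test given further on. LHCA1 has 4 annotated transcripts, and 400 of its bases lie in introns and in no annotated exon. That is fewer than its 3 introns below hold together, so some of their bases are exon in another annotated transcript. The ends of LHCA1 intron 1, 313 bases long, lie at chr3:20340692-20340741 and chr3:20340409-20340458, and its introns 2 and 3 span chr3:20340229-20340315 and chr3:20339849-20339939, all on the minus strand:
LHCA1 intron 1 start: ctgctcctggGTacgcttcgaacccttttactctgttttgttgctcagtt
LHCA1 intron 1 end: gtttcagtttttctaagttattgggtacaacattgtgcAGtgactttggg
LHCA1 intron 2: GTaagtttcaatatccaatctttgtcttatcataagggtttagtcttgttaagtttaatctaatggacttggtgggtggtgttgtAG
LHCA1 intron 3: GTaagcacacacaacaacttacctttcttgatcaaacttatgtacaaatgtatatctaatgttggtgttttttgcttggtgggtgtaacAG

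The longest intron of AT4G19200, its second, has 574 bases and its ends lie at chr4:10499526-10499575 and chr4:10500070-10500119 on the plus strand. The longest intron of TIR1, its first, has 733 bases, with ends at chr3:23275675-23275724 and chr3:23274972-23275021 on the minus strand:
AT4G19200 intron 2 start: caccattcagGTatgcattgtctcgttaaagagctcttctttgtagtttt
AT4G19200 intron 2 end: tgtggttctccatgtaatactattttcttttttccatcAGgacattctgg
TIR1 intron 1 start: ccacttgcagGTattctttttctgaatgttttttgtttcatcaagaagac
TIR1 intron 1 end: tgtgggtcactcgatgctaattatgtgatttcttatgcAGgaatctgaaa

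Exon counts summed to between 20733294 and 27022497 per library. Over all loci, introns took 3.02% to 3.23% of the counts in the pp4r3a-1 libraries and 2.91% to 2.98% in the pp4r3a-2 libraries, against 2.004% to 2.10% in the Col-0 libraries. The library of pp4r3a-2 replicate 3 stood apart from its replicates, with 0.962% of its exon counts from chloroplast genes against 0.427% to 0.558% in the other libraries, and the rule applied without it also found 26 loci, 25 of them members. Tissue markers were not all level between the genotypes. The mean exon levels of the leaf genes RBCS1A, CAB3 and GL2 and of the root gene PYK10 in both mutants were within 1.5-fold of Col-0, and the petal gene AP3 was at most 0.0796 CPM in any genotype. The stomatal gene FAMA was at 12.2 CPM (pp4r3a-1), 10.7 CPM (pp4r3a-2) and 31.8 CPM (Col-0), and the root gene THAS1 was at 69.2 CPM (pp4r3a-1), 42.4 CPM (pp4r3a-2) and 23.5 CPM (Col-0). The seed storage gene CRA1 was at 34.0 CPM (pp4r3a-1), 51.6 CPM (pp4r3a-2) and 5.15 CPM (Col-0), and the oil body gene OLEO1 at 7.42 CPM (pp4r3a-1), 10.6 CPM (pp4r3a-2) and 0.539 CPM (Col-0). The root gene WOX5 was at 2.37 CPM (pp4r3a-1), 2.87 CPM (pp4r3a-2) and 1.01 CPM (Col-0), and the flower gene SEP3 at 1.5 CPM (pp4r3a-1), 3.40 CPM (pp4r3a-2) and 3.00 CPM (Col-0). The SD over the 3 libraries of a genotype was at most 2.69 CPM for THAS1, 1.83 CPM for FAMA, 1.60 CPM for CRA1, 0.608 CPM for WOX5, 0.330 CPM for OLEO1 and 0.283 CPM for SEP3. The part of these differences in the members' values was not tested.

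Every one of the 26 members had its lowest mutant library above its highest Col-0 library in intron share. That separation was common: 5010 of the 7539 loci that passed the count minimums showed it, or 66.5%, and 56 showed the reverse. The members' median pooled share was 4.69% in pp4r3a-1, 4.68% in pp4r3a-2 and 0.693% in Col-0. Over all loci passing the minimums the medians were 4.21% in pp4r3a-1, 3.93% in pp4r3a-2 and 2.27% in Col-0. The rule divides by the Col-0 share and so favours loci where it is low. At least in part by that choice, the members had a lower share than the typical locus in Col-0. In the mutants their share was near that of the typical locus. Their median fold over Col-0 was 6.72 in pp4r3a-1, with a range of 5.02 to 14.6, and 6.26 in pp4r3a-2, with a range of 5.02 to 14.0, beside 1.82 and 1.69 for all loci in pp4r3a-1 and pp4r3a-2. Most loci moved the same way, since the share was above that of Col-0 for 7204 of them (95.6%) in pp4r3a-1 and for 6994 (92.8%) in pp4r3a-2.

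**Figure D1:**
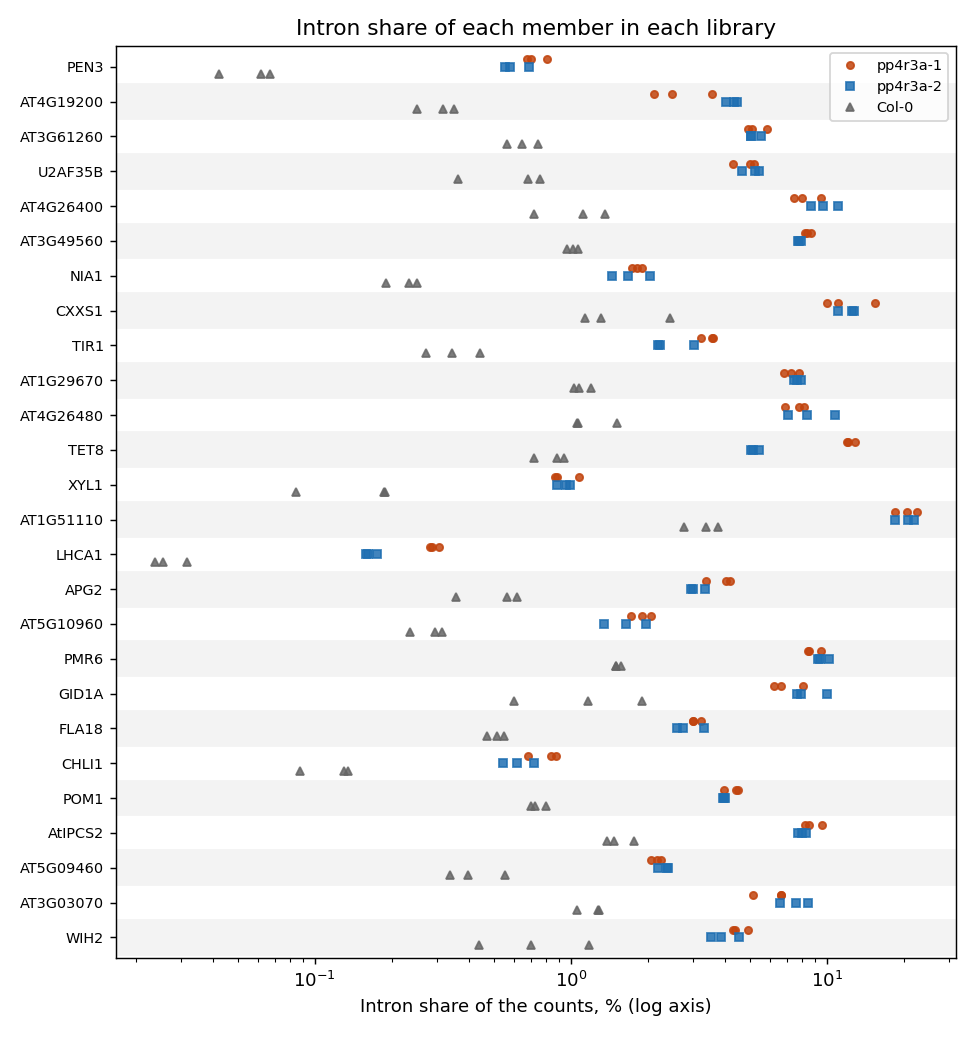
Intron share of the counts (%, log axis) of each of the 26 members in each of the 9 libraries, with members ordered from the largest to the smallest value of the smaller of their folds over Col-0. Points are single libraries. In every row the pp4r3a-1 and pp4r3a-2 points lie to the right of the Col-0 points. The points of the alleles are also apart from each other in TET8, LHCA1, TIR1 and AT4G19200. The same holds for AT3G49560 and APG2, whose intron-to-exon ratio was not called different between the alleles.

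Set per kilobase of intron and exon, the members' intron density was a median of 13.6% of their exon density in pp4r3a-1 and 12.2% in pp4r3a-2, against 2.01% in Col-0. All loci passing the minimums had medians of 8.93%, 8.32% and 4.60% in pp4r3a-1, pp4r3a-2 and Col-0. Among members this density was lowest in LHCA1, at 0.926% in pp4r3a-1, 0.528% in pp4r3a-2 and 0.0864% in Col-0. It was highest in AT4G26400, at 47.2% in pp4r3a-1, 56.3% in pp4r3a-2 and 5.63% in Col-0. The intron counts behind the Col-0 values were small. The pooled Col-0 count of a member ran from 30 to 254 with a median of 41.5. Of the 26 members 18 had fewer than 60, against 40.7% of all loci passing the minimums, whose median was 71. The rule favours loci with a low Col-0 intron count, since that count enters the share it divides by. For 30 counts, the value of TIR1, the exact Poisson 95% interval is 20.2 to 42.8, so a fold of one member over Col-0 carries a wide counting error. The counts carry no molecular identifiers, and such intervals cover counting error only.

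Members that act on RNA or on gene regulation included U2AF35B (AT5G42820), which encodes a small subunit of the splicing factor U2AF, the factor that contacts the AG at the end of an intron. U2AF35B intron counts were 112, 82 and 87 (pp4r3a-1), 100, 124 and 91 (pp4r3a-2) and 25, 22 and 11 (Col-0). U2AF35B exon counts were 2047, 1834 and 1649 (pp4r3a-1), 2056, 2156 and 1655 (pp4r3a-2) and 3275, 3212 and 3032 (Col-0). The mutant libraries were thus higher in introns and lower in exons, with no overlap, and the share was 4.83 ± 0.48% in pp4r3a-1, 5.10 ± 0.41% in pp4r3a-2 and 0.600 ± 0.21% in Col-0 (SD, n = 3 each). U2AF35B overlaps AT5G42810, AT5G06395 and AT5G42825 on the opposite strand, and whether the counting used strand is not given in the sources used here.

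AT4G26400 encodes a protein of the RING/U-box family, many of which are ubiquitin ligases. AT4G26400 intron counts were 49, 44 and 51 (pp4r3a-1), 71, 78 and 71 (pp4r3a-2) and 8, 13 and 14 (Col-0). AT4G26400 exon counts were 609, 509 and 488 (pp4r3a-1), 749, 735 and 571 (pp4r3a-2) and 1104, 1149 and 1019 (Col-0). Again the mutant libraries were all higher in introns and all lower in exons than the Col-0 libraries, and the gene overlaps AT4G26390 on the opposite strand.

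AT4G26480 encodes an RNA-binding protein with a KH domain. AT4G26480 intron counts were 119, 115 and 84 (pp4r3a-1), 109, 101 and 122 (pp4r3a-2) and 17, 18 and 24 (Col-0). AT4G26480 exon counts were 1343, 1365 and 1145 (pp4r3a-1), 1201, 1329 and 1017 (pp4r3a-2) and 1590, 1672 and 1558 (Col-0). The intron counts of the mutants were several times those of Col-0 while the exon counts were moderately lower, and AT4G26470 and AT4G07655 overlap the gene on the opposite strand.

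AT5G09460 encodes the transcription factor bHLH143, and its 3 annotated introns all lie in the 5′ untranslated region. AT5G09460 intron counts were 64, 68 and 57 (pp4r3a-1), 56, 59 and 42 (pp4r3a-2) and 12, 11 and 16 (Col-0). AT5G09460 exon counts were 3039, 2955 and 2569 (pp4r3a-1), 2292, 2430 and 1879 (pp4r3a-2) and 3017, 3258 and 2868 (Col-0). The exon counts of pp4r3a-1 and Col-0 overlapped, and the intron counts did not. AT5G10960, annotated as a ribonuclease H-like protein, had a share of 1.88 ± 0.16% in pp4r3a-1, 1.65 ± 0.31% in pp4r3a-2 and 0.282 ± 0.041% in Col-0 (SD, n = 3 each), in a gene whose single intron, of 114 bases, precedes the coding sequence.

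The hormone receptors among the members were TIR1, the F-box protein that binds auxin, and GID1A, a soluble gibberellin receptor. TIR1 had intron counts of 77, 74 and 70 (pp4r3a-1), 45, 47 and 53 (pp4r3a-2) and 13, 10 and 7 (Col-0). TIR1 exon counts were 2308, 2014 and 1881 (pp4r3a-1), 2009, 2066 and 1698 (pp4r3a-2) and 2927, 2893 and 2569 (Col-0). The pp4r3a-2 libraries lay between pp4r3a-1 and Col-0 in introns, and both mutants lay below Col-0 in exons. GID1A had a share of 6.95 ± 0.97% in pp4r3a-1, 8.49 ± 1.3% in pp4r3a-2 and 1.22 ± 0.65% in Col-0 (SD, n = 3 each), and its exon level was 48.2 ± 0.750 CPM in pp4r3a-1, 44.7 ± 1.45 CPM in pp4r3a-2 and 42.2 ± 1.61 CPM in Col-0.

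Among membrane proteins, PEN3 (AT1G59870), an ABC transporter of the plasma membrane known for its part in resistance to fungal penetration, had intron counts of 166, 180 and 143 (pp4r3a-1), 162, 212 and 144 (pp4r3a-2) and 13, 12 and 7 (Col-0). PEN3 exon counts were 23653, 22155 and 21035 (pp4r3a-1), 27928, 30787 and 25982 (pp4r3a-2) and 19444, 19479 and 16550 (Col-0). The mutants were higher in both counts, and in introns by far more, which gave a share fold of 12.6 for pp4r3a-1 and 10.5 for pp4r3a-2. PEN3 was the member with the largest smaller fold, on a pooled Col-0 count of 32 with a Poisson 95% interval of 21.9 to 45.2.

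TET8 encodes a tetraspanin, a membrane protein found on extracellular vesicles of plants. TET8 intron counts were 372, 357 and 307 (pp4r3a-1), 153, 167 and 120 (pp4r3a-2) and 12, 10 and 11 (Col-0). TET8 exon counts were 2741, 2411 and 2229 (pp4r3a-1), 2875, 2909 and 2221 (pp4r3a-2) and 1267, 1385 and 1239 (Col-0). The TET8 share fold was 14.6 for pp4r3a-1, the largest of any member there, and 6.20 for pp4r3a-2. No genotype overlapped another in share, at 12.3 ± 0.51%, 5.20 ± 0.20% and 0.845 ± 0.11% in pp4r3a-1, pp4r3a-2 and Col-0 (SD, n = 3 each).

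AT3G61260 encodes a remorin, a protein of plasma membrane domains. AT3G61260 intron counts were 117, 90 and 91 (pp4r3a-1), 116, 144 and 104 (pp4r3a-2) and 32, 35 and 37 (Col-0). AT3G61260 exon counts were 1889, 1739 and 1694 (pp4r3a-1), 2189, 2456 and 1965 (pp4r3a-2) and 5644, 5409 and 4925 (Col-0). AT3G61260 exon counts were thus far lower in every mutant library, and much of its share fold of 8.20 for pp4r3a-1 and 8.07 for pp4r3a-2 lay on the exon side. AtIPCS2 (AT2G37940), inositol phosphorylceramide synthase 2 of sphingolipid synthesis, has 11 annotated introns, the most of any member, and a share of 8.75 ± 0.72% in pp4r3a-1, 8.00 ± 0.30% in pp4r3a-2 and 1.54 ± 0.20% in Col-0 (SD, n = 3 each).

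Members of the cell wall and cell surface, with AT1G29670, which is annotated as a GDSL lipase, were 5 genes with share folds of 5.36 to 6.95 over both alleles. AT1G29670 had intron counts of 314, 320 and 288 (pp4r3a-1), 379, 440 and 322 (pp4r3a-2) and 55, 51 and 45 (Col-0). AT1G29670 exon counts were 4302, 4125 and 3426 (pp4r3a-1), 4728, 5141 and 3918 (pp4r3a-2) and 4551, 4689 and 4335 (Col-0). Relative to library depth no genotype overlapped another in exon level, at 151 to 166 CPM in the pp4r3a-1 libraries, 189 to 199 CPM in the pp4r3a-2 libraries and 180 to 186 CPM in the Col-0 libraries. The intron counts of either mutant lay far above Col-0, and AT1G29680 overlaps it on the opposite strand.

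The other 4 were XYL1 (AT1G68560), an alpha-xylosidase that trims xyloglucan, PMR6 (AT3G54920), a pectate lyase-like protein linked to powdery mildew susceptibility, POM1 (AT1G05850), a chitinase-like protein needed for normal cellulose deposition, and FLA18 (AT3G11700), a fasciclin-like arabinogalactan protein. XYL1 had a share of 0.942 ± 0.11% in pp4r3a-1, 0.942 ± 0.057% in pp4r3a-2 and 0.153 ± 0.059% in Col-0 (SD, n = 3 each). PMR6 had 8.78 ± 0.57% in pp4r3a-1, 9.60 ± 0.50% in pp4r3a-2 and 1.53 ± 0.040% in Col-0 (SD, n = 3 each). PMR6 has the most bases of the members that lie in introns and in no annotated exon of the gene, 1661. An exon of AT3G08445 on the same strand covers 82 of them. POM1, with 254 pooled Col-0 intron counts the most deeply counted member, had a share fold of 5.78 for pp4r3a-1 and 5.36 for pp4r3a-2, and FLA18 had 6.01 and 5.57.

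By annotation or known place, 6 members encode proteins of plastids or mitochondria. LHCA1, a chlorophyll-binding antenna protein of photosystem I, had intron counts of 315, 281 and 277 (pp4r3a-1), 177, 180 and 133 (pp4r3a-2) and 13, 18 and 13 (Col-0). LHCA1 exon counts were 111815, 97597 and 90633 (pp4r3a-1), 100556, 111101 and 83810 (pp4r3a-2) and 54780, 56493 and 50764 (Col-0). LHCA1 was the member with the highest exon level and the lowest share, at 0.291 ± 0.012% in pp4r3a-1, 0.165 ± 0.0092% in pp4r3a-2 and 0.0271 ± 0.0043% in Col-0 (SD, n = 3 each).

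AT3G49560, a protein of the Tim17/Tim22/Tim23 family of translocases, has introns of at most 91 bases, the shortest maximum among the members. AT3G49560 intron counts were 164, 145 and 146 (pp4r3a-1), 139, 143 and 111 (pp4r3a-2) and 21, 20 and 18 (Col-0). AT3G49560 exon counts were 1809, 1625 and 1546 (pp4r3a-1), 1624, 1707 and 1334 (pp4r3a-2) and 1957, 1946 and 1845 (Col-0). The exon counts were modestly lower in every mutant library, and nearly all of the difference in share lay in the intron counts.

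AT3G03070, annotated as similar to a subunit of NADH-ubiquinone oxidoreductase, the first complex of mitochondrial respiration, has the longest single intron of the members, 1039 bases. AT3G03070 intron counts were 127, 151 and 126 (pp4r3a-1), 130, 166 and 142 (pp4r3a-2) and 23, 29 and 28 (Col-0). AT3G03070 exon counts were 2344, 2129 and 1776 (pp4r3a-1), 1851, 2037 and 1552 (pp4r3a-2) and 2148, 2236 and 2155 (Col-0). The intron counts separated the mutants from Col-0, and the exon counts of pp4r3a-1 and Col-0 overlapped.

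AT1G51110, of the fibrillin family of plastid lipid-associated proteins, had the highest share, 20.5 ± 2.1% in pp4r3a-1, 20.3 ± 1.8% in pp4r3a-2 and 3.28 ± 0.50% in Col-0 (SD, n = 3 each), with 10 annotated introns. CHLI1, a subunit of the magnesium chelatase that starts the chlorophyll branch of tetrapyrrole synthesis, had 0.795 ± 0.10% in pp4r3a-1, 0.624 ± 0.087% in pp4r3a-2 and 0.117 ± 0.026% in Col-0 (SD, n = 3 each). APG2 (AT2G01110), the TatC-type translocase of the thylakoid membrane, had 3.87 ± 0.43% in pp4r3a-1, 3.08 ± 0.21% in pp4r3a-2 and 0.510 ± 0.14% in Col-0 (SD, n = 3 each). Both CHLI1 and APG2 overlap genes on the opposite strand, AT4G18465 for CHLI1 and AT2G01100 and AT2G03895 for APG2.

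NIA1 (AT1G77760), a nitrate reductase that converts nitrate to nitrite, had intron counts of 144, 148 and 120 (pp4r3a-1), 145, 136 and 100 (pp4r3a-2) and 53, 49 and 36 (Col-0). NIA1 exon counts were 7801, 7663 and 6836 (pp4r3a-1), 6952, 7997 and 6786 (pp4r3a-2) and 21089, 20969 and 18853 (Col-0). Its introns were about equally high in the alleles, and its exon level was 300 ± 10.3 CPM in pp4r3a-1, 309 ± 18.1 CPM in pp4r3a-2 and 819 ± 12.6 CPM in Col-0 (SD, n = 3 each).

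CXXS1 (AT1G11530) encodes a thioredoxin-like protein with a serine in place of a cysteine in its active site. CXXS1 intron counts were 27, 32 and 24 (pp4r3a-1), 41, 39 and 27 (pp4r3a-2) and 17, 9 and 8 (Col-0). CXXS1 exon counts were 243, 177 and 194 (pp4r3a-1), 281, 273 and 218 (pp4r3a-2) and 680, 681 and 695 (Col-0). CXXS1 had the fewest exon counts of the members, and exons of AT1G04853 on the opposite strand cover 276 of its 437 intron bases.

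The remaining 2 members are annotated as proline-rich proteins. AT4G19200 had intron counts of 105, 77 and 104 (pp4r3a-1), 168, 174 and 133 (pp4r3a-2) and 13, 13 and 10 (Col-0). AT4G19200 exon counts were 4126, 3579 and 2831 (pp4r3a-1), 3594, 4138 and 2926 (pp4r3a-2) and 3699, 4080 and 3985 (Col-0). It had the largest share fold in pp4r3a-2, 14.0, beside 8.66 in pp4r3a-1, and its intron counts were higher in every pp4r3a-2 library than in any pp4r3a-1 library.

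WIH2 (AT2G41420) had intron counts of 87, 74 and 59 (pp4r3a-1), 67, 70 and 67 (pp4r3a-2) and 6, 11 and 18 (Col-0). WIH2 exon counts were 1684, 1626 and 1317 (pp4r3a-1), 1676, 1916 and 1410 (pp4r3a-2) and 1364, 1568 and 1518 (Col-0). Relative to library depth, the exon level of every pp4r3a-2 library, 68.0 to 74.3 CPM, was above that of any pp4r3a-1 library, 57.9 to 65.6 CPM, or Col-0 library, 53.9 to 65.03 CPM. The Col-0 intron counts spread widely among the replicates.

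Intron counts and exon counts contributed unequally to the shares. Relative to the exon total of each library, the intron level was above that of Col-0 in all 26 members in each allele. The rule all but fixes this direction, since it asks for a share at least 5 times that of Col-0. The median intron fold was 6.12 in pp4r3a-1 (range 2.45 to 31.2) and 6.04 in pp4r3a-2 (range 2.92 to 17.1). Over all loci passing the minimums the medians were 1.76 and 1.64. The exon level had a median fold of 0.877 for pp4r3a-1 and 0.875 for pp4r3a-2, beside 0.956 and 0.955 over all loci. The exon level was within 1.5-fold of Col-0 in both alleles in 15 members. It was more than 1.5-fold lower in both alleles in 7, namely AT3G61260, U2AF35B, AT4G26400, NIA1, CXXS1, AT1G51110 and PMR6. In 2, TET8 and LHCA1, it was more than 1.5-fold higher in both. Taken singly, 8 members were more than 1.5-fold lower in pp4r3a-1, against 16.0% of all loci passing the minimums. In pp4r3a-2 these were 7 members, against 13.2%. A lower exon count raises the share, so the rule favours such genes. In whole seedlings, fewer cells that express a gene and less RNA per cell cannot be told apart.

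**Figure D2:**
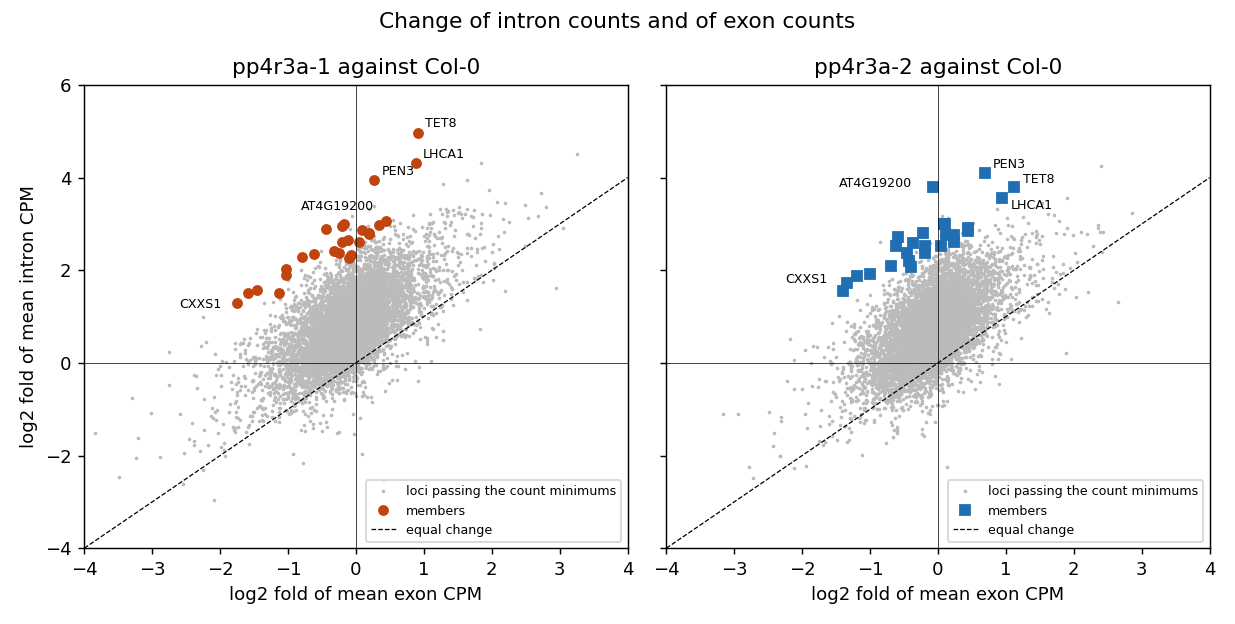
Log2 fold of the mean intron level against the log2 fold of the mean exon level (both per 1000000 exon counts), for pp4r3a-1 and for pp4r3a-2 over Col-0. Grey points are loci that passed the count minimums, large symbols the 26 members, and the dashed line marks equal change; all members lie far above that line, with exon folds on either side of 0.

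The members' exon folds ran from 0.297 for CXXS1 to 1.89 for TET8 in pp4r3a-1, and from 0.378 for NIA1 to 2.17 for TET8 in pp4r3a-2. In CXXS1 the intron fold was the smallest of the members in pp4r3a-1, 2.45, and in NIA1 it was the smallest in pp4r3a-2, 2.92. In TET8 and LHCA1 exon and intron levels were both above Col-0, with intron folds for TET8 of 31.2 in pp4r3a-1 but 14.0 in pp4r3a-2, and for LHCA1 of 19.9 in pp4r3a-1 but 11.7 in pp4r3a-2. All members together held 0.490% to 0.495% of all intron counts in the pp4r3a-1 libraries and 0.506% to 0.519% in the pp4r3a-2 libraries, against 0.125% to 0.126% in the Col-0 libraries.

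In gene structure the members had few introns. The transcript with the longest coding sequence had a median of 2.5 introns in members, against 6 in loci that passed the count minimums and were found in the annotation. At most 4 introns were annotated in 21 members (80.8%), against 35.01% of those loci, and a single intron in 5 members (19.2%), against 7.70%. The 5 members with a single intron in that transcript were U2AF35B, AT4G26400, TET8, AT5G10960 and GID1A. U2AF35B has 2 annotated transcripts. In all, 608 of its bases lie in introns and in no annotated exon, against 277 bases in that single intron. The median longest intron was 370 bases in members and 341 bases in all such loci. The median number of intron bases in no annotated exon of the gene was 666 against 950. That number depends on the annotated transcripts, a median of 1 in members and 2 in those loci. An intron in the 5′ untranslated region was annotated in 7 members (26.9%), against 1506 of 7529 loci.

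**Figure D3:**
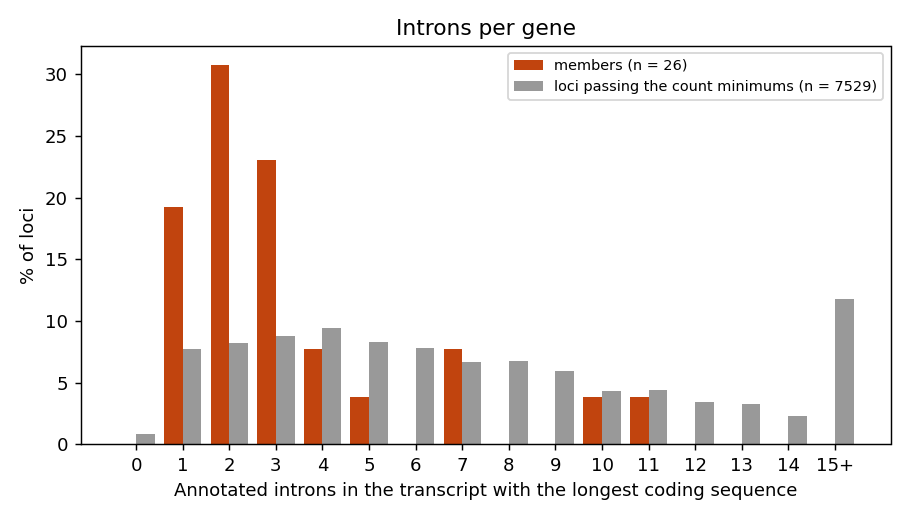
Share of loci (%) by number of annotated introns, for the 26 members and for the 7529 loci that passed the count minimums and were found in the TAIR10.1 annotation. Members are concentrated at 1 to 3 introns, whereas the other bars spread to 15 and more.

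All 87 introns of the members begin with GT and end with AG, as do 98.8% of 59055 introns of all loci that passed the minimums. The longer start GTAAGT, read on the strand of the gene, was found in 14 of the 87 (16.1%), against 8.85%. Of the introns shown above, LHCA1 intron 2 and GID1A intron 1 start in this way. GTAAG followed by any base was found in 18 (20.7%), against 16.5%, and GTATGT in 3 (3.45%), against 4.75%. An intron of at least 500 bases was more frequent, at 12 of 87 (13.8%) against 3.52%. So was one of at least 250 bases, at 24 (27.6%) against 15.5%. A CAG end was about as frequent, at 67.8% against 66.7%. The median GC content of the introns was 31.9% in members and 33.3% in all loci. The members were also more highly expressed in exons, with a median of 121 CPM in Col-0 against 43.9 CPM for all loci; a gene with at least 30 intron counts and a low share needs many exon counts to enter. These features are descriptive, and no test was made of them.

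The threshold cut through a continuous distribution. The 3 members just inside it were WIH2, AT3G03070 and AT5G09460, with folds of 5.82 in pp4r3a-1 but 5.02 in pp4r3a-2 for WIH2, of 5.02 and 6.17 for AT3G03070, and of 5.08 and 5.47 for AT5G09460. The 3 loci just outside were E13L3 (AT5G08000), with 4.97 for pp4r3a-1 and 5.22 for pp4r3a-2, NRPE5 (AT3G57080), with 4.94 and 5.16, and BAG7 (AT5G62390), with 4.92 and 6.48. With no condition on the other allele, 78 loci reached 5-fold in pp4r3a-1 and 50 did so in pp4r3a-2. The excluded genes had folds as large as those of the members, 8.33 in pp4r3a-1 and 7.63 in pp4r3a-2 for TUB5, and 8.73 and 8.50 for UBQ10. At a 4-fold threshold 124 loci would enter, and at an 8-fold threshold 3 members would remain.

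**Figure D4:**
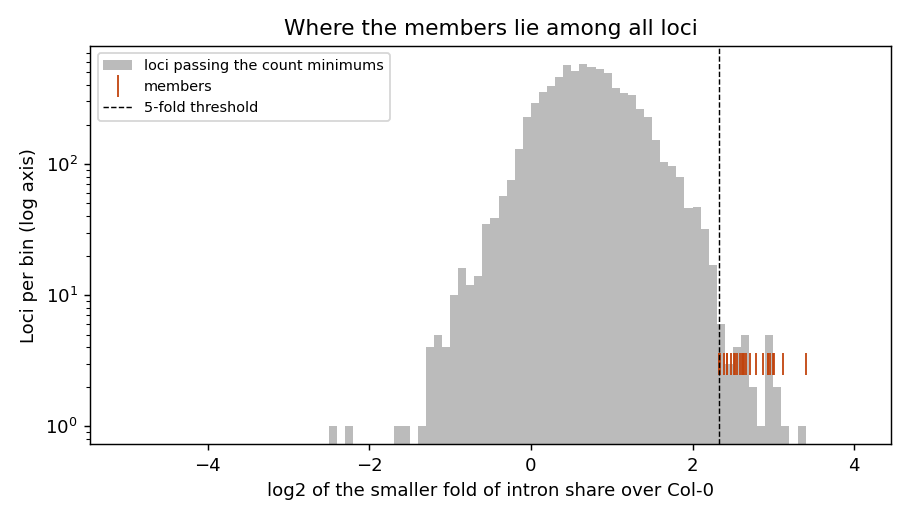
Number of loci (log axis) by the log2 of the smaller of their folds of intron share over Col-0, for loci that passed the count minimums, with the 26 members as ticks and the 5-fold threshold as a dashed line. The members lie in the sparse upper tail, and loci lie close to the threshold on its lower side.

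Among genes of the splicing machinery and related lists, U2AF35B was the sole member. Of 20 SR splicing factor genes 17 passed the count minimums, with median share folds of 1.60 for pp4r3a-1 and 1.58 for pp4r3a-2, and 3 of them had at least 2-fold in both alleles. Of 11 other RNA-binding splicing regulators 10 passed, with medians of 1.05 in pp4r3a-1 and 0.859 in pp4r3a-2. U2AF35A (AT1G27650), the paralog of U2AF35B, had share folds of 5.95 in pp4r3a-1 and 4.87 in pp4r3a-2 but did not pass, with 16 pooled Col-0 intron counts. The shares of UAP56A (AT5G11170), an RNA helicase of the spliceosome, went the other way, at 7.47% in pp4r3a-1, 7.49% in pp4r3a-2 and 16.1% in Col-0. The MOS4-associated complex, a set of spliceosome-bound proteins, had medians of 2.14 in pp4r3a-1 and 1.95 in pp4r3a-2 over 6 genes that passed, nonsense-mediated decay genes 2.15 and 2.01 over 4, and circadian clock genes 1.43 and 1.35 over 6. The PP4 genes had 2.58 and 2.56 over 3, and PP4R3A itself 3.67 in pp4r3a-1 and 5.87 in pp4r3a-2. The exon levels of the clock genes were not level between the genotypes. CCA1 was at 28.7 CPM (pp4r3a-1), 25.7 CPM (pp4r3a-2) and 0.686 CPM (Col-0). In that order, LNK1 was at 74.8, 53.6 and 4.52 CPM and PRR7 at 155, 158 and 38.8 CPM. TOC1 was lower in the mutants, at 101, 82.9 and 166 CPM, as were RVE2, PRR3, ELF3 and LUX. The part of these clock differences in the members' values was not tested.

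The contrast of the alleles with each other was not one that the rule used, but the rule did use the pooled counts of both alleles. Its minimum of 5-fold in each of them limits how far a member can fall in one allele, so the counts and medians of members below are a description, and nothing is read from their distance to the background. The intron-to-exon ratio, tested with edgeR's quasi-likelihood test on intron and exon counts of the same library side by side, differed in 4 of the 26 members at an adjusted p under 0.05. It was higher in pp4r3a-2 in 1 member, where 1.5% of the 11133 genes tested were higher, and lower in 3 members, where 6.72% were lower. Of the loci passing the count minimums 1.73% were higher and 7.71% lower. The members' median log2 difference was -0.05, beside -0.11 over all genes tested. The share fold was the larger in pp4r3a-1 for 15 members and in pp4r3a-2 for 11.

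TET8 had the largest difference. Its log2 ratio of pp4r3a-2 over pp4r3a-1 was -1.35 (SE 0.098; edgeR adjusted p 4.91e-30), and every pp4r3a-2 library had a lower intron share than any pp4r3a-1 library. LHCA1 followed at -0.81 (SE 0.099; edgeR adjusted p 4.11e-12), again with no overlap between the alleles. AT4G19200 differed in the other direction, by 0.71 (SE 0.12; edgeR adjusted p 2.37e-06). TIR1 had -0.50 (SE 0.16; edgeR adjusted p 0.0340), on 45 to 77 intron counts per mutant library. The TET8 call was made under every alternative run. With DESeq2 the adjusted p was 0.135 for AT4G19200 and 0.503 for TIR1, and with limma on the log2 ratio it was 0.211 for AT4G19200, 0.343 for TIR1 and 0.113 for LHCA1. The TIR1 call was also lost without pp4r3a-1 replicate 2 (edgeR adjusted p 0.0965) or 3 (0.0957), and without pp4r3a-2 replicate 1 (0.174) or 2 (0.178).

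**Figure D5:**
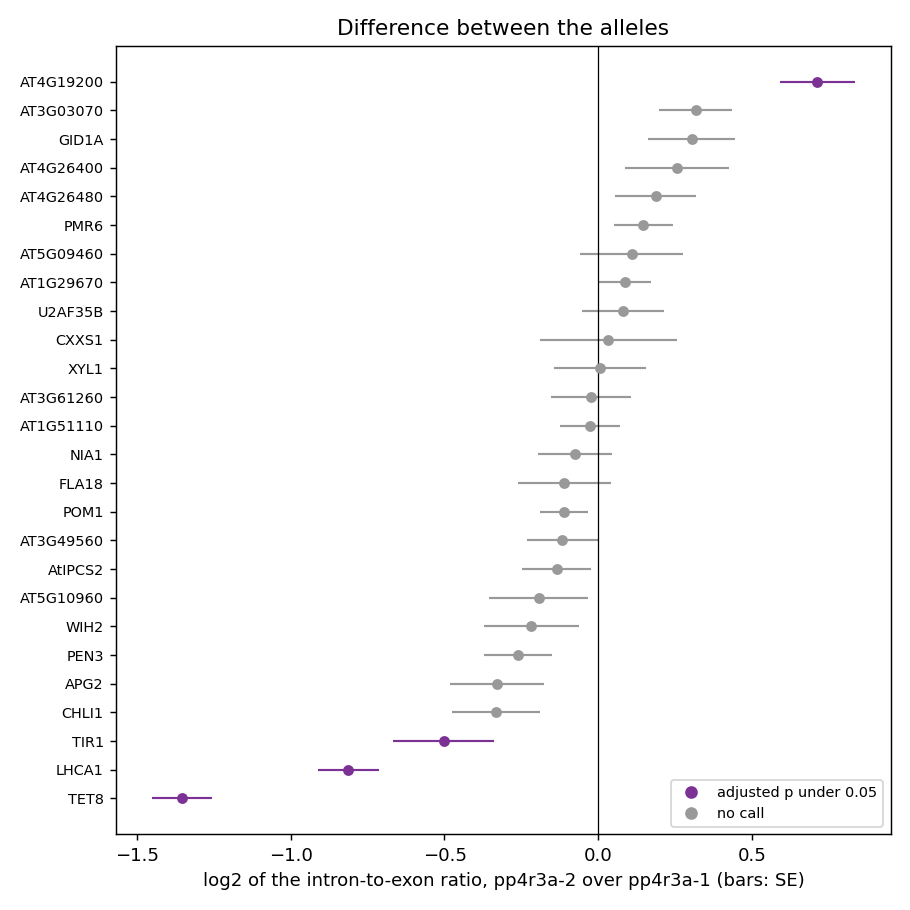
Log2 of the intron-to-exon ratio of pp4r3a-2 over pp4r3a-1 for each of the 26 members, with bars of 1 SE from edgeR and a coloured point where the adjusted p was under 0.05. AT4G19200 lies at 0.71, TIR1, LHCA1 and TET8 at -0.50, -0.81 and -1.35, and the other 22 members between -0.33 and 0.32.

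The remaining 22 members had log2 values of -0.33 for CHLI1 to 0.32 for AT3G03070, with SEs of 0.078 for POM1 to 0.22 for CXXS1. A difference of that size between the alleles could not be called at this depth, which does not show that the alleles were alike. In the intron counts alone, edgeR called 6 members higher in pp4r3a-2, where 7.68% of 11133 genes were higher, and 4 lower, where 11.5% were lower. Of the loci passing the count minimums 8.67% were higher and 11.6% lower in intron counts. The higher ones were AT4G19200, at 0.85 (SE 0.12), AT4G26400, PMR6, AT1G29670, AT3G61260 and FLA18, and the lower ones were TET8, at -1.12 (SE 0.097), LHCA1, TIR1 and POM1. The calls of AT4G19200, AT4G26400, PMR6, AT1G29670, TET8 and LHCA1 were made under every alternative run, and the other 4 were lost under several. With DESeq2 the adjusted p was 0.235 for FLA18, 0.122 for AT3G61260, 0.146 for POM1 and 0.215 for TIR1, and none of these genes had an edgeR adjusted p under 0.01. FLA18 was lost without pp4r3a-1 replicate 1 (edgeR adjusted p 0.0855) or 3 (0.119) and without pp4r3a-2 replicate 3 (0.188), and AT3G61260 without pp4r3a-1 replicate 2 (0.0813) or pp4r3a-2 replicate 2 (0.0911). POM1 was lost without pp4r3a-1 replicate 2 (edgeR adjusted p 0.103) or 3 (0.0911), without pp4r3a-2 replicate 1 (0.0755) or 2 (0.0607), and with TMM of the intron counts (0.172). TIR1 was lost without pp4r3a-1 replicate 3 (edgeR adjusted p 0.0675), without pp4r3a-2 replicate 1 (0.112) or 2 (0.151), and with TMM of the intron counts (0.0600).

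In the exon counts, where calls were frequent, edgeR called 13 members higher in pp4r3a-2 and 3 lower, beside 24.2% higher and 23.7% lower of 22631 genes tested, and 33.7% higher and 19.9% lower of the loci passing the count minimums. The members' log2 differences ran from -0.26 for AT5G09460 (SE 0.038; edgeR adjusted p 6.79e-07) to 0.52 for FLA18 (SE 0.039; edgeR adjusted p 7.49e-14), with a median of 0.12. The other members lower in pp4r3a-2 were XYL1 at -0.19 and POM1 at -0.11. PEN3 was higher at 0.46, and AT3G61260, AT4G26400, CXXS1 and PMR6, which had lower exon levels than Col-0 in both alleles, stood at 0.43 to 0.48 and so were less far below Col-0 in pp4r3a-2. In TET8 the exon count was 0.24 higher in pp4r3a-2 (SE 0.041; edgeR adjusted p 1.05e-05) and in TIR1 it differed by 0.02 (SE 0.040; edgeR adjusted p 0.737), so the lower ratio of TET8 combined fewer intron counts with more exon counts, while that of TIR1 lay almost wholly in its intron counts, at -0.48 (SE 0.16).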

How the data were processed

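Each of the 9 libraries has a deposited table that lists a count in exons and a count in introns for every locus, per the file headers; both were taken as raw read counts. The reads were aligned with STAR, per the submitters' processing notes. The version, the genome build, the annotation, the counter, its use of strand and its rule for introns are not given in the sources used here. Symbols, structures and sequences came from the RefSeq annotation of TAIR10.1, matched by locus, which may not be the annotation counted. The members, lists and tests were chosen with earlier results of these data known.

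Levels are counts per 1000000 exon counts. For exons, filterByExpr chose the genes and TMM the library sizes, and edgeR 4.0.16 in R 4.3.3 fitted all 9 libraries with 1 mean per genotype. Intron counts were tested where the 9 libraries held at least 90, with the exon library sizes, and the ratio with 1 term per library. Tests were two-sided with Benjamini-Hochberg adjustment over all genes tested, at 0.05. DESeq2 1.42.0 and limma 3.58.1 were alternatives, together with other thresholds, scalings and leaving out each library. The steps were tested on simulated data. Values in every library are given for the 12 members with the largest smaller fold, up to 6 members per direction by the test of the alleles, the 3 members just inside the threshold and members of the lists; the 3 loci just outside are given by their folds. Genes shown otherwise were chosen after their values were seen. Pairs of replicates differed by more than counting error, with a chi-square over its degrees of freedom of 1.62 to 12.1, so no library was counted as a repeat of another. The labels call the replicates biological, without naming how they were grown apart.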

Additional observations from a re-analysis of the deposited data

Results flagged for a closer look

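Between the alleles, 4 members differed in their intron-to-exon ratio by the edgeR test of the difference itself. The log2 difference of pp4r3a-2 over pp4r3a-1 was -1.35 for TET8, -0.81 for LHCA1, -0.50 for TIR1 and 0.71 for AT4G19200. In intron share, all 4 genes were above Col-0 in every library of both alleles. The rule all but fixes this, since it asks for a pooled share at least 5 times that of Col-0 in each allele.

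In 2 members the exon levels of the alleles lay on opposite sides of Col-0. The log2 fold of mean exon CPM over Col-0 for AT1G29670 was -0.20 with the pp4r3a-1 allele and 0.10 with pp4r3a-2, and for FLA18 -0.24 with pp4r3a-1 and 0.24 with pp4r3a-2. The difference of the alleles was tested on exon counts with edgeR and was 0.34 (SE 0.037; edgeR adjusted p 1.01e-09) for AT1G29670 and 0.52 (SE 0.039; edgeR adjusted p 7.49e-14) for FLA18, whereas each allele against Col-0 was not tested, since the rule used that contrast.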

How the results depend on the processing

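The 26 members depend on the thresholds: 124 loci passed at 4-fold, 3 at 8-fold, 8 with at least 60 Col-0 intron counts, 79 with at least 15, and 1 after dividing each fold by the median of all loci. The mean of library shares gave 27 and the ratio in place of the share 38, and each held all 26. Leaving out a library gave 13 to 28 loci, of which 10 to 25 were members; 13, 13 and 16 came without Col-0 replicates 1, 2 and 3, where the minimum of 30 counts then covers fewer libraries. In alternatives chosen after seeing the data, a minimum of 20 counts in those cases gave 27, 27 and 31 loci, of which 19, 21 and 24 were members. So the list itself is sensitive to the Col-0 intron counts, which were low. In further alternatives chosen in this way, 18 members had no overlapping gene and 24 no exon of another gene in an intron. An overlapping gene was annotated for 8 members (30.8%), against 36.9% of the loci that passed the minimums and were found in the annotation. An exon of another gene lay in an intron in 2 members (7.69%), against 9.90%.

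For the ratio between alleles, 167 genes were higher and 748 lower in pp4r3a-2. At an adjusted p under 0.01 these were 89 and 419, with DESeq2 5 and 75, with limma on the log2 ratio with 0.5 added 5 and 31, and with limma after centring each library's ratios on their median 5 and 12. Members higher numbered 0 with DESeq2 and both limma fits and 2 with at least 450 intron counts, and members lower numbered 1 with both limma fits. Leaving out a library gave 114 to 170 genes higher and 473 to 767 lower, and 1 to 2 members higher and 2 to 3 lower. For intron counts, DESeq2 called 433 genes higher and 573 lower, and an adjusted p under 0.01 left 821 lower. Members lower numbered 2 with DESeq2, at 0.01 and with TMM of the intron counts, and 2 to 4 when a library was left out; 2 came without pp4r3a-1 replicate 3 and without pp4r3a-2 replicates 1 and 2. Exon counts gave 12 to 14 members higher and 3 to 4 lower when a library was left out. No direction was reversed in any alternative run; the cause of these shifts was not tested.

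The replicate numbers did not pair the samples: same-numbered libraries had correlations of -0.041 to 0.031. With the replicate block, the ratio of 160 genes was higher and of 736 lower, with 1 member higher and 3 lower.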
